A study of Gallus gallus with 54 samples.

Results

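The change in theca cells (TCs) between small and selected follicles was described here in hens fed bicalutamide (bic), an antiandrogen drug. The members are the 6 libraries that the labels assign to TCs of this treatment at syf 6 mm, the small yellow follicles before selection, and at F5, a young follicle of the preovulatory hierarchy, with 3 libraries at each stage of 54 in the series. The White Leghorn hens were 35 to 40 weeks old and were fed 15 mg of bic for 4 days, and follicles were taken 1 day after the drug was withdrawn. The blank hens (NC) were fed water, and the third treatment was 100 mg of mestanolone (mes), an androgen agonist. These groups enter only where the change from 6 mm to F5 is compared between treatments, with 6 TC libraries each. All hens were fed and watered freely, and a drug group held 10 hens. The question of the comparison is how TCs differ between the stages before and after follicle selection in hens fed bic.

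The theca is the connective tissue shell outside the basement membrane that encloses granulosa cells (GCs) and oocyte. In the hen it makes androgens and, in its outer part, estrogen through aromatase, and it carries the vessels that bring yolk precursors, together with nerves and smooth muscle. At selection a small yellow follicle enters the hierarchy, takes up yolk rapidly and grows, so the wall stretches around a larger yolk. Fewer cells of a type and less RNA per cell cannot be told apart in such bulk libraries.

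Total counts ranged from 44366632 to 46298509 at 6 mm and from 45913799 to 54551278 at F5, and the 12 NC and mes libraries spanned 39171088 to 59683453. The theca marker list, with 12 of 12 genes measured, summed to 7171 to 8018 FPKM at 6 mm and to 6512 to 8126 FPKM at F5, where FPKM is fragments per kilobase of transcript scaled to the size of the library. None of the 12 genes was at 0 in the 6 libraries, and DCN was 193 FPKM or more in each, so the labelled cell type was present. The members did not stay level, with 5 above and 7 below 0 in log2 change from 6 mm to F5. DCN, OGN, PDGFRA, PDGFRB, LUM and CYP19A1 were lower in every F5 library than in any 6 mm library, and ACTA2 was higher. By comparison, the stages did not overlap for 39.5% of all genes tested. In the test described below DCN, OGN and PDGFRA, 3 of the 12, were called lower, and none was called higher. Over all genes 7.43% were called lower. LUM was 0.48 FPKM in F5 replicate 1 against 20.9 and 4.52 FPKM in the other F5 libraries. F5 replicate 1 also held GC RNA. Its level of INHA, the inhibin alpha subunit made by GCs, was 663 FPKM against 1.51 and 0.629 FPKM in the other F5 libraries and 0.0852 to 4.04 FPKM at 6 mm. The granulosa list of 10 genes summed to 2564 FPKM there, against 932 and 1207 FPKM in the other F5 libraries and 765 to 1157 FPKM at 6 mm, and none of the 10 genes was at 0. The GC library of F5 replicate 2 in the same treatment listed INHA at 0 and DCN, a theca matrix gene, at 813 FPKM, so GC levels of F5 are given below for replicates 1 and 3 only.

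A second library stood apart at the other stage. 6 mm replicate 2 had rank correlations across genes of 0.948 and 0.945 with the other 6 mm libraries, which had 0.974 with each other. It held the highest level of the 6 mm libraries in 19 of 22 immediate early genes, whose summed level was 1976 FPKM against 863 and 731 FPKM. Its cell division list of 53 genes summed to 460 FPKM against 1118 and 1494 FPKM. Red blood cell RNA was highest in the libraries numbered 2 at both stages, with HBAA, an alpha-type globin, at 92.7 FPKM in 6 mm replicate 2 against 34.6 and 26.8 FPKM, and at 346 FPKM in F5 replicate 2 against 92.8 and 102 FPKM. Counts over all genes, and many of the lists and genes whose level in F5 replicate 1 or 6 mm replicate 2 stood far apart, are given with and without that library.

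**Figure D1:**
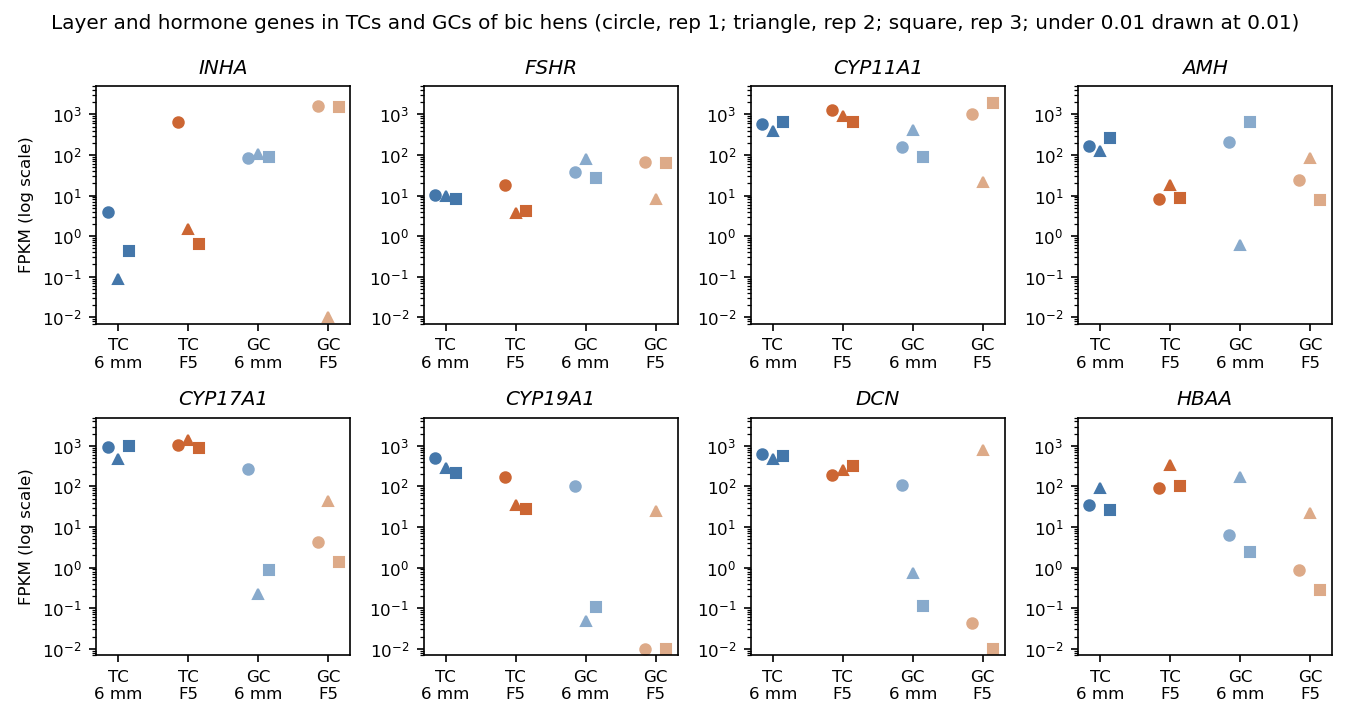
FPKM on a log scale of 8 layer and hormone genes in the TC and GC libraries of bic hens at 6 mm and F5, 1 point per library. INHA reached 663 FPKM in TC F5 replicate 1 only, AMH fell in all TC libraries of F5, and DCN was 813 FPKM in GC F5 replicate 2.

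Between F5 and 6 mm, 2137 of 16725 genes tested were called, which is 12.8%. A call means an adjusted p of at most 0.05 in the quasi-likelihood test of edgeR and a mean FPKM of at least 1 at either stage, the limits the study used between stages of treated hens. The level of 895 genes (5.35%) was higher at F5 and that of 1242 genes (7.43%) was lower. The falls were larger than the rises, with a median log2 fold change of -1.41 among the genes that fell and 0.74 among those that rose, and a log2 change of at least 1.5 was reached by 557 of the former and 37 of the latter. The median over all genes tested was 0.02. This test did not pair the libraries by hen, although the sample names and the study's list give the same numbered hens for both stages. Shares, standard errors and adjusted p-values below are from this unpaired test unless another fit is named. With the hen number as a block 506 genes were called, 45 higher and 461 lower. Without F5 replicate 1 the counts were 341 higher and 835 lower, of which 273 and 747 were also called with it. Without 6 mm replicate 2 they were 521 and 1040. Leaving out F5 replicate 2 or 3, or 6 mm replicate 1 or 3, left 449, 501, 545 and 592 genes called. Of the 81 called genes named below by rule, 34, 49 and 50 lost their call without F5 replicate 1, 2 or 3, and 52, 14 and 47 without 6 mm replicate 1, 2 or 3. The call stayed under each of these omissions for 21 genes, among them ACTC1, NPY2R, LCAT, NPTX2, AMH, GCC2, CACNA2D1, ABCB1LB, BMP5, TGFBR1, CENPF, SYNPO2, SYNM, PECAM1, CDH5, OGN, TIMP4, KITLG, RORA and PTGDS.

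Transcript length moved with the change. The tested genes were put into 6 bins of equal size by their longest transcript. In the bin of the shortest transcripts, up to 1252 nt, the median log2 change was 0.40, with 283 genes higher and 17 lower at F5. In the bin of the longest, from 5989 nt, it was -0.60, with 18 genes higher and 520 lower. Genes that rose had a median length of 1705 nt and genes that fell 5376 nt, against 2868 nt over all genes tested. A less steep slope of the same direction was present in NC, from 0.21 to -0.38, and in mes, from 0.15 to -0.35. The difference of the change between bic and NC also moved with length (Spearman correlation -0.27 across genes), as did that between bic and mes (-0.26). Coverage along long transcripts differed for some of the F5 libraries. The median ratio of the 5′ to the 3′ part over 542 genes was 0.907 to 0.953 at 6 mm. It was 1.08 and 1.09 in F5 replicates 1 and 3, and 0.924, within the 6 mm range, in F5 replicate 2. What links length and stage was not tested. With an offset that removed the dependence on length in each library, 843 genes were higher and 872 lower, of which 368 and 809 were among the calls above. With this offset and the hen block together no gene was called by edgeR, the lowest adjusted p was 0.056, and 4712 genes had an unadjusted p under 0.05. Each of 426 genes, 31 higher and 395 lower, was called in the test above, with the offset, with the block and without F5 replicate 1. These genes are said below to hold in all 4 fits, which is a property of the 4 tests run separately. The 4 fits leave out no library other than F5 replicate 1. A gene can hold in them and lose its call without another library, as PDLIM3, GHR, COL8A1 and MFAP5 did among others.

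**Figure D2:**
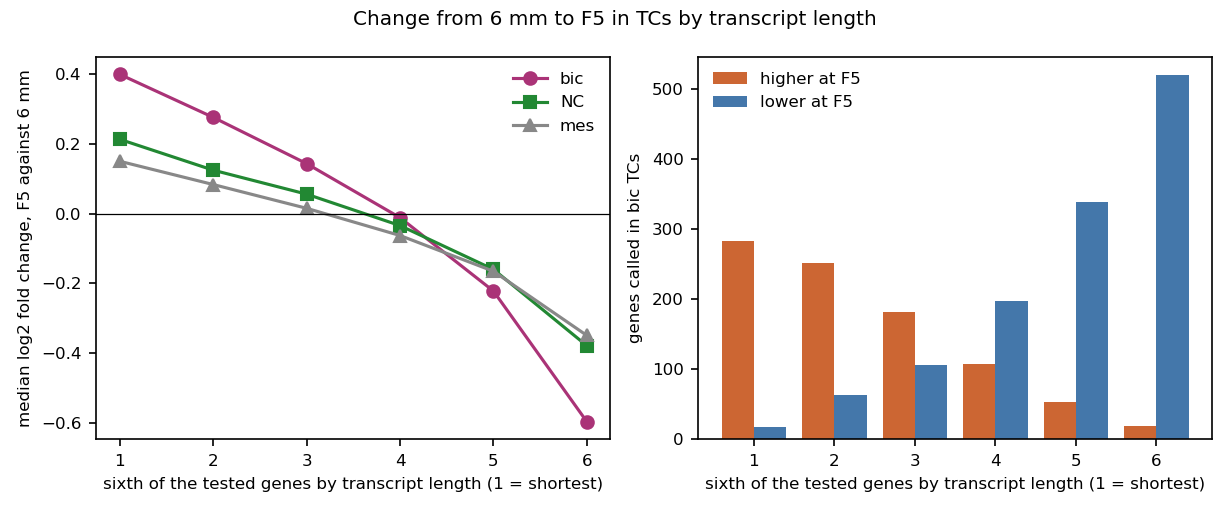
Change from 6 mm to F5 in TCs against transcript length in 6 bins of equal gene number, as the median log2 fold change in bic, NC and mes (left) and as genes called in bic (right). In bic the median runs from 0.40 in the shortest bin to -0.60 in the longest, and NC and mes slope the same way but less steeply.

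The largest rises were ranked among called genes at 5 FPKM or more whose stages did not overlap. They were led by ACTC1, the actin of embryonic and heart muscle, and by NPY2R, a receptor for neuropeptide Y. ACTC1 (chromosome 5, 32283467 to 32288278 in Gallus_gallus-5.0) was 4.32, 3.68 and 3.18 FPKM at 6 mm and 66.8, 118 and 144 FPKM at F5. Separate stages were required of the genes ranked here, and 39.5% of all genes tested had them. The log2 fold change was 4.99 ± 0.35 (SE, adjusted p = 0.0039), a 31.8-fold rise. GJD2, which encodes a gap junction connexin and is located just beside ACTC1 (32305469 to 32307116), was 0.794, 0.198 and 0.226 FPKM at 6 mm and 4.06, 3.70 and 9.94 FPKM at F5. Its log2 change was 3.96 ± 0.73 (adjusted p = 0.022), and with the block the adjusted p was 0.059. GJD2 kept its call in 2 of the 6 omissions of a library. Both genes were listed at 0 in GCs of F5 replicates 1 and 3.

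NPY2R (chromosome 4, 20701756 to 20710208) was 0.403, 0.161 and 0.290 FPKM at 6 mm and 8.38, 7.12 and 14.3 FPKM at F5. The groups were far apart, at a log2 change of 4.65 ± 0.53 (adjusted p = 0.0071), and the gene held in all 4 fits. In NC the same gene was 2.65, 0.365 and 0.506 FPKM at 6 mm and 0.674, 2.33 and 4.86 FPKM at F5. In mes it was 6.80, 0.226 and 0.196 FPKM at 6 mm and 0.290, 1.79 and 0.413 FPKM at F5. The stages overlapped in both of these groups. The difference of the change between bic and NC was 3.64 ± 0.85 on the log2 scale (unadjusted p = 0.0014) and that between bic and mes 5.84 ± 1.64 (unadjusted p = 0.0045), and neither passed the adjustment over all genes.

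LCAT, the enzyme that esterifies cholesterol on lipoproteins, was 2.44, 1.66 and 1.89 FPKM at 6 mm and 16.5, 16.9 and 37.0 FPKM at F5, a log2 change of 3.69 ± 0.40 (adjusted p = 0.0066). The next genes were NPTX2, a secreted pentraxin (at most 1.93 FPKM at 6 mm and 5.70 to 6.61 FPKM at F5, adjusted p = 0.0064), MYL4, a myosin light chain of embryonic and atrial muscle (2.08 ± 0.34, adjusted p = 0.016), and GNAO1, a G protein alpha subunit (2.04 ± 0.51, adjusted p = 0.046). MYL4 rose from 20.7, 12.3 and 29.0 FPKM to at least 55.4 FPKM in the F5 libraries. RGCC, a regulator of the cell cycle, GSTT1L, of the glutathione transferase family, and ADAM12, a membrane-bound metalloprotease, followed with log2 changes of 1.96, 1.92 and 1.83. GNAO1 lost its call with the block (adjusted p = 0.072) and without F5 replicate 1 (adjusted p = 0.095), and it was 64.0 and 62.9 FPKM in GCs of F5 replicates 1 and 3. GSTT1L missed the limit without F5 replicate 1 (adjusted p = 0.056) and kept its call in 1 of the 6 omissions of a library. LCAT, NPTX2, MYL4, RGCC and ADAM12 held in all 4 fits. Of these, LCAT and NPTX2 kept their call under each omission of a library, while RGCC lost it in 2 of the 6, MYL4 in 3 and ADAM12 in 5, and ADAM12 also with the granulosa covariate (adjusted p = 0.096).

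**Figure D3:**
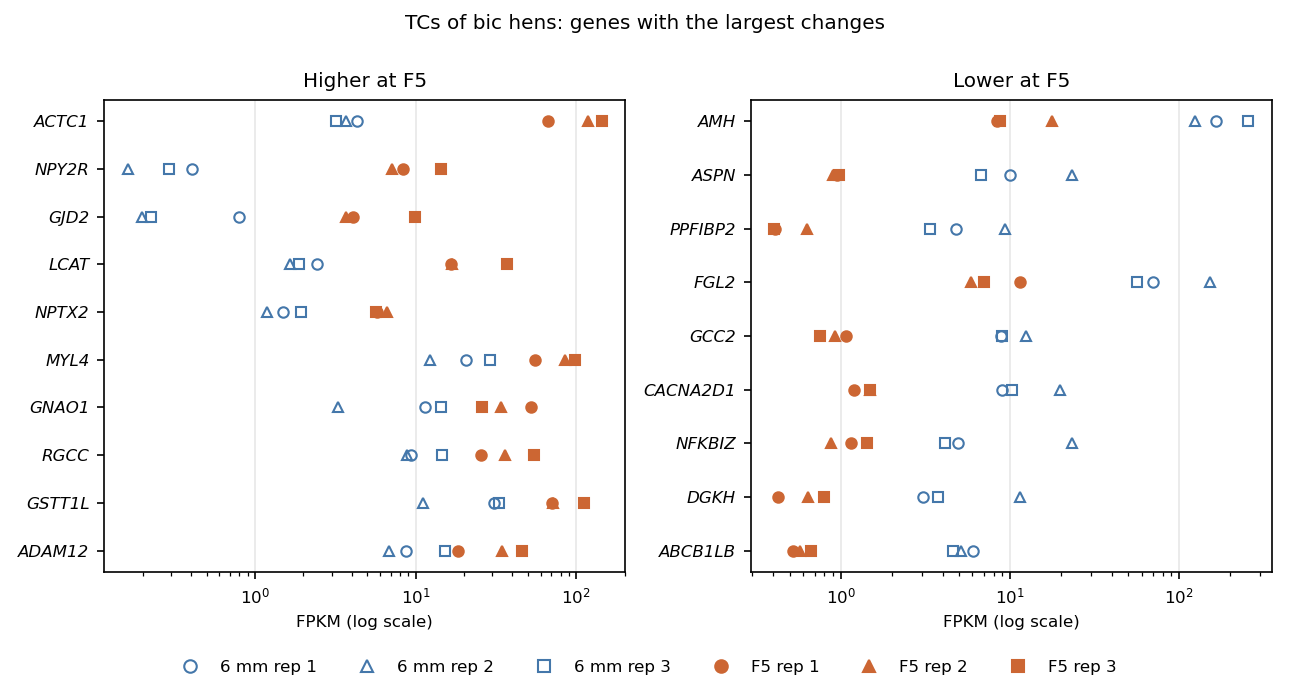
FPKM on a log scale of 10 genes with the largest rises and 9 with the largest falls between 6 mm (open) and F5 (filled) in TCs of bic hens, 1 symbol per library. The 3 libraries of each stage do not overlap in any of these genes, which their choice required, and 6 mm replicate 2 (open triangle) is the highest at 6 mm in 7 of the 9 that fell.

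Among called genes at 5 FPKM or more whose stages did not overlap, AMH led the falls. AMH is the anti-Müllerian hormone that growing follicles secrete. It was 165, 124 and 256 FPKM in TCs at 6 mm and 8.35, 17.7 and 8.74 FPKM at F5. The log2 change was -3.84 ± 0.39 (adjusted p = 0.0062), a 14.3-fold fall that held in all 4 fits. AMH is best known as a GC product, and in GCs of the same treatment it was 213, 0.587 and 643 FPKM at 6 mm. These GC libraries were uneven, which limits a comparison with TCs. Their theca list summed to 1582, 155 and 19.6 FPKM, so replicate 1 also held theca RNA. OCLN, a granulosa marker, was 6.12, 0.941 and 6.45 FPKM in them. INHA in the same 6 mm TC libraries was 4.04, 0.0852 and 0.435 FPKM, against 81.7, 107 and 91.3 FPKM in GCs of that stage. At F5 AMH was 24.8 and 7.54 FPKM in GCs of replicates 1 and 3, not far from the TC levels. The AMH level of the TC library with the GC RNA was no higher than in the others. Since GC RNA of F5 holds little AMH, this level cannot show the source of AMH RNA in TCs.

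Other large falls included both long and shorter transcripts. GCC2, a Golgi tethering protein (longest transcript 8860 nt), was 8.88, 12.4 and 8.96 FPKM at 6 mm and 1.08, 0.924 and 0.756 FPKM at F5. Its log2 change of -3.35 ± 0.25 (adjusted p = 0.0039) became -2.63 (adjusted p = 0.011) with the length offset. ASPN, or asporin, a small proteoglycan of the matrix (2476 nt), was 9.94, 23.2 and 6.76 FPKM at 6 mm and 0.952, 0.906 and 0.975 FPKM at F5, a log2 change of -3.72 ± 0.54 (adjusted p = 0.012) that was -3.82 with the offset. FGL2, a fibrinogen-like protein (3132 nt), was 70.3, 151 and 56.2 FPKM and then 11.4, 5.86 and 7.04 FPKM, with log2 changes of -3.42 and -3.39. Thus the size of the fall shrank under the offset for GCC2 and hardly moved for ASPN and FGL2. ASPN and FGL2 were highest in 6 mm replicate 2. Without that library their log2 changes were smaller, at -2.98 and -2.80 (adjusted p = 0.010 and 0.016).

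PPFIBP2, a liprin, and ABCB1LB, an ABC transporter, also fell and held in all 4 fits, with log2 changes of -3.46 ± 0.47 and -3.01 ± 0.22. CACNA2D1, an auxiliary subunit of calcium channels, changed by -3.13 ± 0.38, but 2 loci carry this symbol in the annotation, so the share of reads between them is uncertain. NFKBIZ, an inducible inhibitor of the NF-kappa-B family, and DGKH, a diacylglycerol kinase, were both highest in 6 mm replicate 2, NFKBIZ at 23.2 FPKM against 4.94 and 4.14 FPKM and DGKH at 11.5 FPKM against 3.06 and 3.74 FPKM. With the block their adjusted p-values were 0.11 and 0.070, and with the length offset 0.054 and 0.052. Without 6 mm replicate 2 the log2 changes were smaller and still called, at -1.74 (adjusted p = 0.029) for NFKBIZ and -2.08 (adjusted p = 0.014) for DGKH. PPFIBP2 and CACNA2D1 were also highest in that library, and without it they changed by -2.88 and -2.64 (adjusted p = 0.013 and 0.0083).

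Of 14 genes of steroid synthesis tested, 1 rose, 1 fell and 12 did not pass. That is 14.3% called beside 12.8% of all genes, with a median log2 change of 0.58 beside 0.02 over all genes. CYB5A, cytochrome b5, which helps CYP17A1 to make androgens, was 72.8, 52.9 and 67.0 FPKM at 6 mm and 86.7, 93.4 and 79.6 FPKM at F5 (0.56 ± 0.14, adjusted p = 0.042), a call lost with the offset (adjusted p = 0.11), the block (0.10) and each library left out. HSD17B1, which reduces estrone to estradiol, was 291, 162 and 252 FPKM at 6 mm and 138, 108 and 87.7 FPKM at F5. The F5 libraries were all lower, at -0.95 ± 0.24 (adjusted p = 0.047), and at -1.21 (adjusted p = 0.028) with the offset, but the call was lost with the block (adjusted p = 0.070) and without F5 replicate 1 (adjusted p = 0.051). HSD17B1 kept its call in 1 of the 6 omissions of a library.

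CYP19A1, aromatase, was 511, 282 and 216 FPKM at 6 mm and 170, 34.2 and 27.8 FPKM at F5. The F5 libraries were again all lower, but F5 replicate 1, the library with GC RNA, was far above the others, and the gene did not pass the test (-1.95 ± 0.76, adjusted p = 0.13). With the block it passed (adjusted p = 0.045), and without F5 replicate 1 it passed at -3.29 (adjusted p = 0.024). CYP19A1 was listed at 0 in GCs of F5 replicates 1 and 3. CYP17A1, which makes androgens from progestins, was 941, 467 and 986 FPKM at 6 mm and 1049, 1365 and 880 FPKM at F5 (0.60 ± 0.28, adjusted p = 0.18). STAR, which brings cholesterol into mitochondria, was 353, 58.5 and 319 FPKM and then 497, 570 and 333 FPKM (1.10 ± 0.58, adjusted p = 0.23). CYP11A1, which cleaves the cholesterol side chain, was 579, 397 and 632 FPKM and then 1312, 928 and 665 FPKM (0.99 ± 0.27, adjusted p = 0.058). For STAR, CYP17A1 and CYP11A1 the lowest level was in 6 mm replicate 2, and the stages overlapped for CYP17A1 and for STAR. Without that library the log2 changes were 0.63 for STAR, 0.34 for CYP17A1 and 0.84 for CYP11A1 (adjusted p = 0.15, 0.30 and 0.14).

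Of 18 receptors tested, LHCGR rose and GHR, NR3C2 and ESR2 fell, 22.2% beside 12.8% of all genes. GHR, the growth hormone receptor, was 18.6, 14.1 and 18.5 FPKM at 6 mm and 6.79, 4.92 and 6.72 FPKM at F5 (-1.34 ± 0.20, adjusted p = 0.013), and it held in all 4 fits. ESR2, an estrogen receptor, was 7.04, 3.10 and 7.44 FPKM and then 1.64, 1.23 and 1.60 FPKM (-1.82 ± 0.34, adjusted p = 0.023). It was called with the offset and the block and missed the limit without F5 replicate 1 (adjusted p = 0.053). ESR2 kept its call in 1 of the 6 omissions of a library and lost it with the granulosa covariate (adjusted p = 0.070). NR3C2, the mineralocorticoid receptor, changed by -1.15 ± 0.20 (adjusted p = 0.020), and it was lost with the offset (adjusted p = 0.054) and the block (adjusted p = 0.062). LHCGR, the receptor for luteinizing hormone, was 44.1, 27.3 and 46.9 FPKM at 6 mm and 77.6, 72.9 and 50.5 FPKM at F5 (0.90 ± 0.23, adjusted p = 0.048). That call was lost with the offset (0.068), with the block (0.097) and with each library left out. FSHR, the receptor for follicle stimulating hormone, was 10.5, 9.51 and 8.06 FPKM at 6 mm and 18.3, 3.67 and 4.18 FPKM at F5, with F5 replicate 1 alone above the 6 mm range. Its log2 change was 0.02 ± 0.62 with that library and -1.13 (adjusted p = 0.042) without it.

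The TGF-beta superfamily, whose ligands act between oocyte, GCs and TCs, had 29 genes tested, of which 1 rose and 3 fell, at a median log2 change of 0.00. The share called, 13.8%, was near the 12.8% over all genes. BMP5, a bone morphogenetic protein, was 18.0, 16.8 and 16.6 FPKM at 6 mm and 6.56, 7.45 and 7.32 FPKM at F5 (-1.17 ± 0.14, adjusted p = 0.0072). TGFBR1, a type I receptor for TGF-beta, was 13.7, 14.1 and 12.6 FPKM and then 6.22, 6.04 and 6.95 FPKM (-1.18 ± 0.15, adjusted p = 0.0084). Replicates of both genes were close within each stage, and both genes held in all 4 fits. BMPR1A, a receptor for bone morphogenetic proteins, changed by -1.87 ± 0.31 and GDF10, a ligand, by 1.67 ± 0.32, and both lost their call with the block (adjusted p = 0.058 and 0.062). Of 13 ID genes and SMADs, which respond to or carry these signals, ID2 rose, 7.69% called beside 12.8% of all genes. Its log2 change was 0.84 ± 0.15 (adjusted p = 0.021), and its call was lost with the offset (adjusted p = 0.079) and the block (0.067).

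Of 22 smooth muscle genes tested, TPM2, TAGLN and ACTG2 rose and SYNPO2, SYNM, PDLIM3 and MYH11 fell, 31.8% beside 12.8% of all genes. None of the 3 rises was called with the block, 1 with the offset and 1 without 6 mm replicate 2, while 3, 3 and 4 of the falls were. Over all genes these fits called 45, 843 and 521 higher and 461, 872 and 1040 lower. Without F5 replicate 1 the list had 4 members called higher and 4 lower, beside 341 and 835 over all genes. In NC it had 7 and 1, beside 673 and 589 over all genes. SYNM, or synemin, an intermediate filament protein, was 16.6, 22.0 and 10.4 FPKM at 6 mm and 1.76, 3.03 and 2.69 FPKM at F5 (-2.61 ± 0.36, adjusted p = 0.011). PDLIM3, a Z-disc protein that binds actinin, was 90.1, 116 and 54.6 FPKM and then 18.5, 22.7 and 17.8 FPKM (-2.06 ± 0.32, adjusted p = 0.015). SYNPO2, an actin-bundling protein, changed by -1.53 ± 0.20 (adjusted p = 0.0085). These 3 genes held in all 4 fits, but PDLIM3 lost its call without 6 mm replicate 1 and without F5 replicate 2 or 3. MYH11, the smooth muscle myosin heavy chain, was 137, 131 and 102 FPKM and then 43.8, 53.1 and 58.5 FPKM (-1.14 ± 0.20, adjusted p = 0.020), and its call was lost with the offset (adjusted p = 0.062) and the block (0.070). The summed level of the list was 6637 to 6909 FPKM at 6 mm and 7422 to 11090 FPKM at F5, with the lowest F5 value in replicate 1. The genes that fell thus did so while the summed level did not, and the called rises were 0.97 for TPM2, 0.81 for TAGLN and 1.27 for ACTG2 on the log2 scale.

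The vessel list pointed mostly downwards, with 26 of 32 genes below 0, a median log2 change of -0.36 and 6 genes that fell against 1 that rose (21.9% called beside 12.8% of all genes). PECAM1, the junction protein CD31 of endothelium, was 53.6, 62.6 and 45.3 FPKM at 6 mm and 8.57, 13.3 and 11.5 FPKM at F5 (-2.16 ± 0.24, adjusted p = 0.0066). CDH5, the cadherin of endothelial junctions, was 44.8, 67.7 and 41.9 FPKM and then 7.86, 13.4 and 11.4 FPKM (-2.14 ± 0.30, adjusted p = 0.011). Both fell 4-fold or more and held in all 4 fits. ANGPT1, a ligand that steadies vessels, changed by -1.89 ± 0.36 and SOX7, a transcription factor of endothelium, by -0.89 ± 0.18. Both kept their call with the offset and lost it with the block (adjusted p = 0.076 and 0.068). PROX1 and VWF also fell and APLN rose in the main test. With the offset 5 members fell and none rose, beside 872 and 843 over all genes. Without F5 replicate 1 it was 2 and 1, beside 835 and 341 over all genes.

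Of 29 collagens, 1 rose and 2 fell (10.3% called beside 12.8% of all genes). Their summed level was 8378 to 10437 FPKM at 6 mm and 8503 to 10084 FPKM at F5. COL8A1, a short-chain collagen of vessel walls and basement membranes, was 76.2, 35.4 and 58.6 FPKM at 6 mm and 174, 143 and 207 FPKM at F5, a log2 change of 1.76 ± 0.29 (adjusted p = 0.017) that held in all 4 fits. COL13A1 and COL7A1, with transcripts of 10033 and 9657 nt, were called lower. With the offset the log2 change of COL7A1 turned from -0.66 to 0.077, and 5 collagens rose and none fell. That fit called 843 genes higher and 872 lower of all 16725. Of 34 other matrix genes, OGN, LAMA2, DCN and LAMA4 fell and MFAP5, LOXL1 and LOXL2 rose, 20.6% beside 12.8% of all genes. OGN, or osteoglycin, a small leucine-rich proteoglycan, was 109, 190 and 134 FPKM at 6 mm and 19.5, 18.4 and 22.8 FPKM at F5 (-2.73 ± 0.28, adjusted p = 0.0062). DCN, or decorin, of the same family, was 615, 482 and 558 FPKM and then 193, 249 and 316 FPKM (adjusted p = 0.031), with an adjusted p of 0.075 in the block. MFAP5, a microfibril protein, was 34.1, 25.4 and 36.5 FPKM and then 63.6, 67.2 and 97.7 FPKM (1.39 ± 0.22, adjusted p = 0.015). LAMA2, a laminin chain, changed by -1.98 ± 0.28. OGN, LAMA2 and MFAP5 held in all 4 fits. LOXL1, which crosslinks elastin, changed by 0.90 ± 0.18 and was lost with the block (adjusted p = 0.078).

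Among 31 proteases and inhibitors of the matrix, 4 fell and 1 rose, 16.1% beside 12.8% of all genes. MMP2, a gelatinase, was 204, 268 and 213 FPKM at 6 mm and 47.9, 59.1 and 84.4 FPKM at F5 (-1.72 ± 0.27, adjusted p = 0.015). TIMP4, a tissue inhibitor of metalloproteases, was 2.73, 2.38 and 3.21 FPKM and then 0.579, 0.632 and 0.504 FPKM (-2.15 ± 0.22, adjusted p = 0.0065). A protease and an inhibitor thus fell side by side, and both held in all 4 fits. ADAMTS6 changed by -1.21 ± 0.20 and lost its call with the offset (adjusted p = 0.083) and the block (0.052), and ADAMTS17 changed by 1.18 ± 0.28 and lost it with the block (0.056). MMP23B was the fourth gene that fell.

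**Figure D4:**
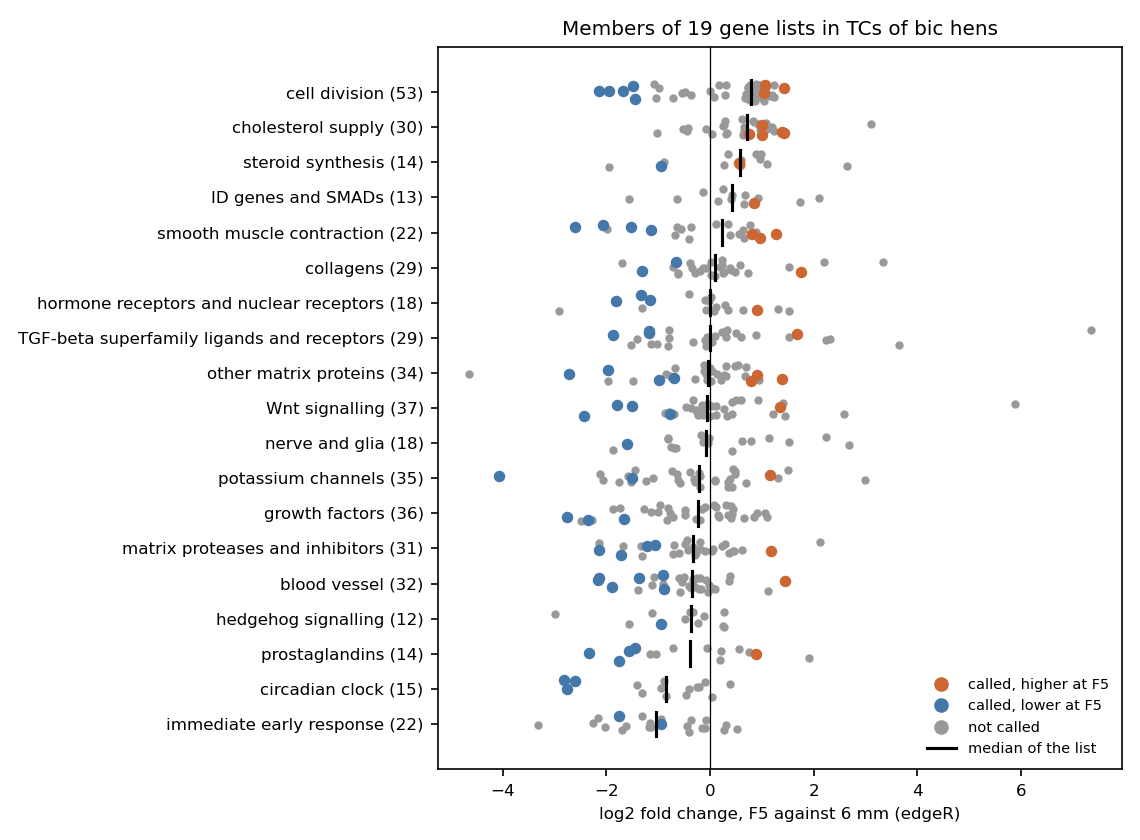
Log2 fold change (F5 against 6 mm, TCs of bic hens) of every tested member of 19 gene lists, 1 point per gene, with called genes in colour, the number tested in brackets and the list median as a bar. The medians run from -1.05 for immediate early genes to 0.79 for cell division, and the median over all genes was 0.02.

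Of 30 genes of cholesterol supply tested, 25 were above 0 at a median log2 change of 0.70, and LRP8, PMVK, SQLE, SC5D and FDPS rose (16.7% called beside 12.8% of all genes). With the block no member was called, beside 506 of all genes. Without 6 mm replicate 2 it was 6 higher and 1 lower at a median of 0.55, beside 521 and 1040 over all genes. SQLE, the squalene epoxidase of cholesterol synthesis, was 34.0, 20.3 and 42.1 FPKM at 6 mm and 61.5, 61.6 and 51.0 FPKM at F5 (0.99 ± 0.24, adjusted p = 0.040). PMVK, phosphomevalonate kinase, and SC5D, a desaturase late in the pathway, changed by 1.00 ± 0.23 and 0.75 ± 0.19, and LRP8, a receptor of the LDL receptor family, by 1.43 ± 0.25 from 0.752 to 0.855 FPKM at 6 mm. With the block the adjusted p of these 4 was 0.066 to 0.099, and LRP8 alone of them was called without F5 replicate 1. The summed level was 3618 FPKM in F5 replicate 1, the library with GC RNA, against 1588 and 1818 FPKM in the other F5 libraries, and it was lowest, at 853 FPKM, in 6 mm replicate 2.

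The cell division list had a median log2 change of 0.79, with 41 of 53 genes above 0, yet 3 genes were called higher and 5 lower (15.1% beside 12.8% of all genes). With the block no member was called higher and 2 were called lower, beside 45 and 461 over all genes. PLK1, a mitotic kinase (2497 nt), was 24.5, 11.1 and 28.6 FPKM at 6 mm and 44.5, 57.5 and 52.8 FPKM at F5 (1.42 ± 0.31, adjusted p = 0.034, and 0.073 with the block). CCNA2 and PRC1 rose with it. The genes that fell, CENPF, MKI67, ASPM, SMC2 and CENPE, included long transcripts of 8482 to 10664 nt for MKI67, CENPF and ASPM. CENPF, a kinetochore protein, was 2.38, 2.19 and 4.19 FPKM and then 0.554, 0.690 and 0.554 FPKM (-2.15 ± 0.27, adjusted p = 0.0085), and it held in all 4 fits. MKI67, the proliferation antigen Ki-67, changed by -1.94 ± 0.36 (adjusted p = 0.022, and 0.078 with the offset). With the offset PLK1 alone rose and CENPF alone fell, beside 843 and 872 over all genes. The low level of the list in 6 mm replicate 2 moved with this result. Without that library the median was 0.44, with 8 genes higher and 9 lower, beside 521 and 1040 over all genes. Without F5 replicate 1, CENPF was the member called, beside 341 higher and 835 lower over all genes.

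Immediate early genes had the lowest list median, -1.05 over 22 genes, and KLF4 and PTGS2 fell (9.09% called beside 12.8% of all genes). This median was 0.20 without 6 mm replicate 2, the library in which 19 of the 22 were highest among the 6 mm libraries, so it turned with 1 library. KLF4, a transcription factor, was even within the stages, at 9.35, 8.38 and 8.08 FPKM and then 3.41, 4.41 and 4.42 FPKM (-0.95 ± 0.19, adjusted p = 0.026, and 0.079 with the block). Of 15 clock genes, 13 were below 0 and RORA, PER2 and NFIL3 fell (20.0% called beside 12.8% of all genes). Their median was -0.85, which was -0.37 without 6 mm replicate 2 and -0.42 with the length offset. RORA, a nuclear receptor of the clock, was 0.931, 1.67 and 1.55 FPKM at 6 mm and 0.176, 0.126 and 0.159 FPKM at F5 (-2.76 ± 0.38, adjusted p = 0.010) and held in all 4 fits. PER2, a repressor of the clock, was 9.80, 19.8 and 10.3 FPKM and then 2.43, 0.842 and 1.41 FPKM (-2.83 ± 0.49, adjusted p = 0.019, and 0.063 with the block). Without 6 mm replicate 2 the log2 change of PER2 was -2.39 (adjusted p = 0.037). NFIL3, a clock output repressor, was 42.2 FPKM in 6 mm replicate 2 against 12.7 and 8.03 FPKM in its fellows. Its log2 change was -2.60 with that library and -1.67 (adjusted p = 0.017) without it, and its adjusted p was 0.080 with the block.

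Of 36 growth factors and their receptors, KITLG, PDGFRA and HGF fell and none rose, and 21 of the 36 lay below 0. The 8.33% called compare with 12.8% of all genes, or 7.43% lower. KITLG, the ligand of the KIT receptor, was 18.8, 11.3 and 19.3 FPKM at 6 mm and 2.70, 2.63 and 3.37 FPKM at F5, a log2 change of -2.36 ± 0.25 (adjusted p = 0.0065), and held in all 4 fits. PDGFRA, a receptor of stromal cells for platelet-derived growth factor, was 55.2, 65.1 and 55.7 FPKM and then 15.1, 12.8 and 23.3 FPKM (-1.66 ± 0.28, adjusted p = 0.017, and 0.056 with the block). HGF, hepatocyte growth factor, changed by -2.76 ± 0.59 and lost its call with the block (adjusted p = 0.095). It was highest in 6 mm replicate 2, without which its log2 change was -1.97 (adjusted p = 0.040). Of 37 Wnt genes, DKK2, FZD5, LEF1 and SFRP5 fell and FZD9 rose (13.5% called, near the 12.8% of all genes, median -0.05). DKK2, a secreted Wnt modulator, changed by -1.51 ± 0.26, SFRP5, another, by -1.79 ± 0.43, FZD5, a receptor, by -2.43 ± 0.49, and LEF1, a transcription factor of the pathway, by -0.77 ± 0.16. All 4 kept their call with the offset and lost it with the block (adjusted p = 0.065 to 0.088). In the hedgehog list of 12 genes GLI1, a target of the pathway, was called, 8.33% beside 12.8% of all genes. GLI1 changed by -0.94 ± 0.24 and was lost with the offset (adjusted p = 0.081).

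Of 14 prostaglandin genes, PTGES2 rose and PTGDS, PTGS2, PTGER4 and PTGFR fell, 35.7% beside 12.8% of all genes. With the block 1 of them, PTGDS, was called, beside 506 of all genes. PTGDS, a prostaglandin D synthase with a short transcript of 713 nt, was 48.8, 43.9 and 28.8 FPKM at 6 mm and 8.80, 5.98 and 7.28 FPKM at F5 (-2.34 ± 0.29, adjusted p = 0.0082). It fell against the trend of short transcripts, changed by -2.70 with the offset and held in all 4 fits. PTGES2, a prostaglandin E synthase, changed by 0.89 ± 0.17, PTGER4, a prostaglandin E receptor, by -1.57 ± 0.37, and PTGS2, the inducible cyclooxygenase, by -1.76 ± 0.41, and none of them was called with the block (adjusted p = 0.074 to 0.084). Of 35 potassium channel genes 1 rose and 2 fell, 8.57% beside 12.8% of all genes. KCNB2, a voltage-gated channel, was 1.26, 0.774 and 1.16 FPKM at 6 mm and 0.0626, 0.0493 and 0.0595 FPKM at F5. It was close to absent at F5 (-4.07 ± 0.30, adjusted p = 0.0039) and held in all 4 fits. KCNJ15 fell from at least 2.45 FPKM at 6 mm to at most 1.28 FPKM at F5 and KCNJ5 changed by 1.16 ± 0.25, both inward rectifiers, and neither was called with the block (adjusted p = 0.078 and 0.077).

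Markers of other cells in the theca gave few calls in the main test. The share called was 5.56% of nerve and glia, 5.88% of leukocyte and 11.1% of epithelium genes, beside 12.8% of all genes. Of the 10 granulosa genes AMH was the member called, and it was lower. Without F5 replicate 1, the library with GC RNA, 4 of the 10 were called lower and none higher, beside 835 and 341 over all genes. SOX10, a factor of neural crest and glia, was the member called among 18 nerve and glia genes (-1.60 ± 0.39, adjusted p = 0.042), and it was lost with the offset (adjusted p = 0.069) and the block (0.068). Of 17 leukocyte genes PTPRC, the leukocyte common antigen CD45, was 6.93, 4.52 and 4.14 FPKM at 6 mm and 1.96, 1.11 and 0.964 FPKM at F5 (-1.73 ± 0.35, adjusted p = 0.028, and 0.052 with the offset). The 17 genes summed to 138 to 169 FPKM at 6 mm and 106 to 187 FPKM at F5. WT1, a factor of the ovarian surface and stroma, was the member called of 9 epithelium genes (-0.89 ± 0.21, adjusted p = 0.042, and 0.070 with the block), and that list summed to 200.4 to 710 FPKM at 6 mm and 479 to 962 FPKM at F5. Red blood cell genes were not called without the block, under which HBAA and HBAD were (adjusted p = 0.035 each). Their list summed to 39.2 to 189 FPKM at 6 mm and 173 to 722 FPKM at F5, with HBE1 and HBE at 0 in all 6 libraries. In the oocyte list BMP6 and ZP1 had the smallest p of 6 genes tested (adjusted p = 0.13 and 0.30), and 8 of the 11 oocyte genes, DAZL, DDX4 and BMP15 among them, stayed under 1 FPKM. The part of these cells in the results above was not tested. The granulosa covariate given under the processing alternatives was a score of AMH, INHA, FOXL2, OCLN and FSHR. On the log2 scale this score was 9.55, 9.25 and 9.97 at 6 mm, and 10.2, 8.21 and 8.09 in F5 replicates 1, 2 and 3. AMH was itself called lower at F5, and outside F5 replicate 1 the score was lower at F5 too. The covariate thus cannot separate GC RNA from stage, and a call kept or lost with it does not show the part of GC RNA.

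The change from 6 mm to F5 ran the same way in the other treatments for nearly all of these genes. In NC 1262 of 16550 genes were called (7.63%), with 4.07% higher and 3.56% lower at F5, and in mes 12 of 16960 (0.0708%). The treatments share no library. Across 16147 genes tested in both, the log2 changes in bic and NC had a Pearson correlation of 0.74 and a Spearman correlation of 0.78, and across 16367 genes those in bic and mes had 0.63 and 0.72, a description across genes, which are not independent and which share the direction of the length slope. Of the genes called in bic, 323 of 894 that rose were also called higher in NC, which is 36.1% of the bic rises and 48.1% of the 671 NC rises. Of the falls 415 were shared, which is 33.5% of 1237 in bic and 70.7% of 587 in NC, and no gene was called in opposite directions. INHA in NC TCs at F5 was 1.52, 288 and 601 FPKM, so GC RNA was present in F5 libraries of that group as well, while in mes it was 0.614 to 2.42 FPKM.

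All 81 named genes that were called in bic had the same sign in NC, and 79 had it in mes, NPY2R and COL7A1 being the exceptions. AMH fell in every treatment, from 191 to 278 FPKM to 5.57 to 10.2 FPKM in NC (log2 change -4.80) and from 197 to 233 FPKM to 16.2 to 33.8 FPKM in mes (-3.20). ACTC1 rose from 1.11 to 2.49 FPKM to 52.2 to 127 FPKM in NC (5.83, adjusted p = 0.018) and from 0.424 to 1.60 FPKM to 11.4 to 32.0 FPKM in mes (4.51, adjusted p = 0.11). The median log2 change of the 56 named genes that fell was -1.88 in bic and -0.94 in mes, with NC between them, and of the 25 that rose it was 1.43 in bic, 1.26 in NC and 1.00 in mes. These genes were picked for their change in bic, and the slope with transcript length was steeper in bic, so the sizes are a description with no test. Single mes libraries also stood apart for some of these genes. In mes F5 replicate 1 PDGFRA was 59.7 FPKM against 22.1 and 22.1 FPKM, and OGN was 59.7 FPKM against 20.8 and 24.9 FPKM. HSD17B1, at 238 FPKM there, lay between its fellows. In mes 6 mm replicate 1 GCC2 was 1.74 FPKM against 6.48 and 11.4 FPKM.

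**Figure D5:**
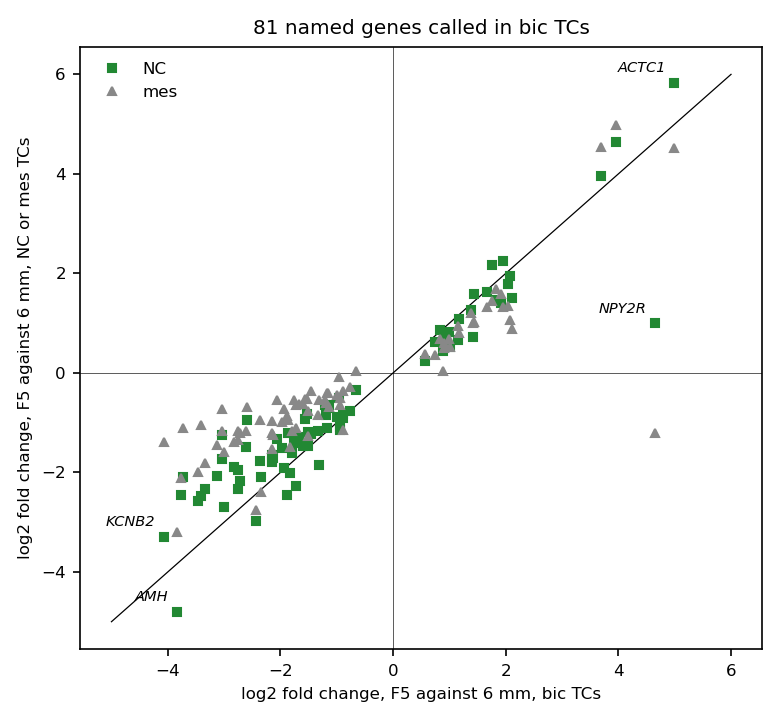
Change in level (log2, F5 over 6 mm) of the 81 named genes called in bic TCs (horizontal) against that in NC (squares) and mes (triangles), with the line of equality. All 81 squares have the sign of bic, and NPY2R lies far off the line, at 4.65 in bic, 0.99 in NC and -1.21 in mes.

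The test of the difference itself called no gene by edgeR. For bic against NC 0 of 17682 genes were called (0.0%) with 375 at an unadjusted p under 0.05, and DESeq2 called 25 and limma-voom 1. For bic against mes 0 of 17717 were called (0.0%) with 622 at an unadjusted p under 0.05, the lowest adjusted p was 0.89, and DESeq2 called 33 and limma-voom 0. Of the 2137 genes called in bic, 117 had an unadjusted p under 0.05 against NC and 261 against mes. Among named genes the difference for KCNB2 between bic and mes was -2.74 ± 0.66 (unadjusted p = 0.0018). KCNB2 was 0.390 to 1.26 FPKM at 6 mm and 0.201 to 0.554 FPKM at F5 in mes, where the stages overlapped. In NC it was up to 2.21 FPKM at 6 mm and 0.110 to 0.200 FPKM at F5, below every 6 mm library. A different change under bic was thus not established by edgeR for any gene at 3 libraries a group, which does not show that the treatments act alike. The genes that DESeq2 or limma-voom called are not named here.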

How the data were processed

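RNA of TC layers from 3 numbered hens per group was sequenced as read pairs. Per the study's methods and the submitters' processing notes, reads were mapped to Gallus_gallus-5.0 (HISAT2 2.1.0) after which duplicate sequences were removed with Samtools, and assigned to genes (StringTie 1.3.4d). The count in the deposited table, which the authors call a reads count, is not normalized. For 26619 genes in each of the 6 libraries it equals, within 1 count, the product of mean coverage and transcript length over 75. The reads of the study were longer than 75 bases. Each read thus adds more than 1 count, and the counts are neither whole reads nor whole fragments. The deposited transcript files hold other values of StringTie, from which FPKM per gene was summed over transcripts. Counts were tested as deposited with edgeR 4.0.16 (TMM factors, low-count filter, quasi-likelihood F test) in R 4.3.3, with the compared groups in each fit. The standard error is the absolute log2 fold change divided by the square root of F, and adjusted p-values are by Benjamini-Hochberg over all genes tested. In the interactions 4 groups with 12 libraries were fitted. The 5 rows without a gene name, at most 0.605% of counts, were left out.

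Named genes were the 10 rises and 10 falls of largest size among called genes with a symbol other than LOC, at 5 FPKM or more and without overlap of the stages, the up to 4 called members with the smallest p of each of 25 lists (or 2 members where none was called), 10 hormone genes named in any case, and called genes of the interactions, of which there were none. Other called list members are named to account for a count. Members and lists were chosen with earlier results of these data known. List members whose symbol marks several loci were left out. Some genes are not reported here.

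The hen numbers stand in the sample names, and the study lists the stages of a number under the same hen. Residuals of same-numbered libraries of both stages correlated at 0.24, 0.06 and 0.20 over 16725 genes, against -0.29 to 0.06 for other pairs. The alternatives tried were DESeq2 1.42.0, limma-voom (limma 3.58.1) with quality weights, size factors by RLE, no low-count filter, all 27 TC libraries in the fit, the hen block, an added fold limit, no FPKM limit, a granulosa score as covariate, only genes not above their theca level in NC GCs, and each library left out. The transcript length offset, alone and with the block or without F5 replicate 1, was added after seeing the data. Replicate pairs differed by more than counting noise. The script was tested on simulated data.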

Additional observations from a re-analysis of the deposited data

How the results depend on the processing

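In this paragraph the 3 values are genes called, higher and lower in bic at F5 against 6 mm, which were 2137, 895 and 1242. They were 3948, 1921 and 2027 with DESeq2, 3866, 2037 and 1829 with limma-voom, 5083, 3001 and 2082 with all TC libraries in the fit, 594, 37 and 557 with the fold limit, 1190, 409 and 781 with the granulosa covariate, and 1142, 570 and 572 over genes not above their theca level in NC GCs. Without the low-count filter 588 genes were higher. With the hen number as replicate block they were 506, 45 and 461, with the block and the length offset 0 in each direction (4712 at an unadjusted p under 0.05), and with the offset and without F5 replicate 1 984, 428 and 556. Leaving out 1 library gave 449 to 1561 genes, 35 to 521 higher and 412 to 1040 lower. RLE factors, the length offset alone and no FPKM limit kept the total within 1.5 times. The interaction against NC had 0 calls, 25 with DESeq2, 1 with limma-voom and 0 to 3 with a library left out, and that against mes 0, 33 with DESeq2 and 0 to 2 with a library left out.

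Of the 81 named genes called, 38 stayed called with the block (the others had adjusted p = 0.052 to 0.11), 60 with the length offset, 47 without F5 replicate 1 and 53 with the covariate. COL7A1 turned to 0.077 with the offset, 0.11 with offset and block and 0.13 with the offset and without F5 replicate 1. FSHR, at 0.02, turned to -1.13 without F5 replicate 1 and -1.12 with the offset as well, in a range of -1.13 to 0.40 with 1 library left out. When 1 library was left out, 21 of the 81 kept their call each time. The causes were not tested. Fewer libraries leave fewer residual degrees of freedom, and 3 hens a group limit all p-values.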
